A study of Schizosaccharomyces pombe 972h- with 8 samples.

Results

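The genes described here encode the subunits of RNA polymerases I, II and III of fission yeast and the initiation factors of polymerases I and III. They were selected by name, as the rows of both arrays whose gene name or alias is of the rpa, rpb, rpc, sfc or rrn type or is nuc1, ker1, brf1 or bdp1, and the replication factor genes ssb1, ssb2 and ssb3, 1 of which carries rpa1 as an alias, were left out. Of the 4854 genes that both platforms measured 47 were matched, and the annotated product of 45 belongs to this machinery. The other 2 were matched by an alias only: bdf1 (alias brf1), a bromodomain protein, and pnu1 (alias nuc1), an endodeoxyribonuclease. The 45 genes comprise 7 subunits of polymerase I alone, 7 of polymerase II alone, 10 of polymerase III alone, 2 shared by I and III, 5 common to all 3 enzymes, 6 polymerase I factors and 8 polymerase III factors.

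RNA was taken from the wild-type strain Schizosaccharomyces pombe 972h-, with no mutation or transgene in either group, in cultures grown in rich YE medium. H2O2 samples were collected 30 minutes after hydrogen peroxide had been added at 0.5 mM, and control samples were withdrawn from the same cultures just before the addition, so that the peroxide and the additional 30 minutes of growth cannot be told apart. There were 2 cultures, each started from its own colony. RNA of each sample was hybridized to an expression microarray (Sp_EMA), with a double-stranded target that does not separate the DNA strands, and to a tiling microarray (Sp_TMA), with a target that preserves the polarity of the transcripts, which gives 2 H2O2 and 2 control arrays per platform and 8 in all.

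RNA polymerase I transcribes the ribosomal DNA into the precursor of the large rRNAs, and polymerase II transcribes protein-coding genes. Polymerase III makes tRNAs, the smallest rRNA of the ribosome and other short RNAs. The enzymes share a set of small subunits, each has its own pair of large catalytic subunits, and polymerases I and III carry built-in counterparts of factors that bind polymerase II separately. In growing yeast most transcription is the work of polymerases I and III, and their activity is known to be reduced in many stresses.

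The deposited values are log2 signals normalized within each platform, with array medians of 10.29 to 10.31 on Sp_TMA and 11.10 to 11.13 on Sp_EMA. A change is the mean of the H2O2 arrays minus the mean of the control arrays (log2), and a gene was called higher or lower at a limma adjusted p (Benjamini-Hochberg over 4854 genes) below 0.05. The labelled treatment was checked with stress genes. The catalase gene ctt1 was higher in H2O2 by 3.19 on Sp_TMA and 2.99 on Sp_EMA, and srx1 (sulfiredoxin), gpx1 (glutathione peroxidase) and pyp2 (a phosphatase of the stress MAP kinase) were called higher on both.

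Most genes of the machinery were called lower in H2O2. On Sp_TMA 28 of the 45 genes were called lower (background: 31.3% of all genes), 2 higher (background: 25.2%) and 15 neither, and on Sp_EMA 37 were called lower (background: 36.2%) and 8 neither. No gene was called higher by limma on Sp_EMA (background: 22.7%), although 1, rpb1, was higher at an unadjusted p below 0.05. Both platforms called 26 genes lower (background: 27.0%) and neither called 5 (background: 31.5%), while 10 were called lower on Sp_EMA with no call on Sp_TMA (background: 9.06%). Both H2O2 arrays lay below both control arrays for 40 genes on Sp_TMA (background: 44.7%) and 41 on Sp_EMA (background: 51.2%), and above them for 2 (background: 35.5%) and 1 (background: 31.4%). The median change was -0.39 on Sp_TMA and -0.45 on Sp_EMA, beside -0.05 and -0.07 over all 4854 genes. The changes were moderate, since 2 of the 45 fell by 2-fold or more on Sp_TMA (background: 4.18%) and 5 on Sp_EMA (background: 4.84%). Both platforms read the same RNA, so the second is not an independent repeat of the cultures, and total RNA from a culture does not tell a lower level in every cell from a loss in some cells. Because the values are scaled within each array, a change in total mRNA per cell would not be seen.

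**Figure D1:**
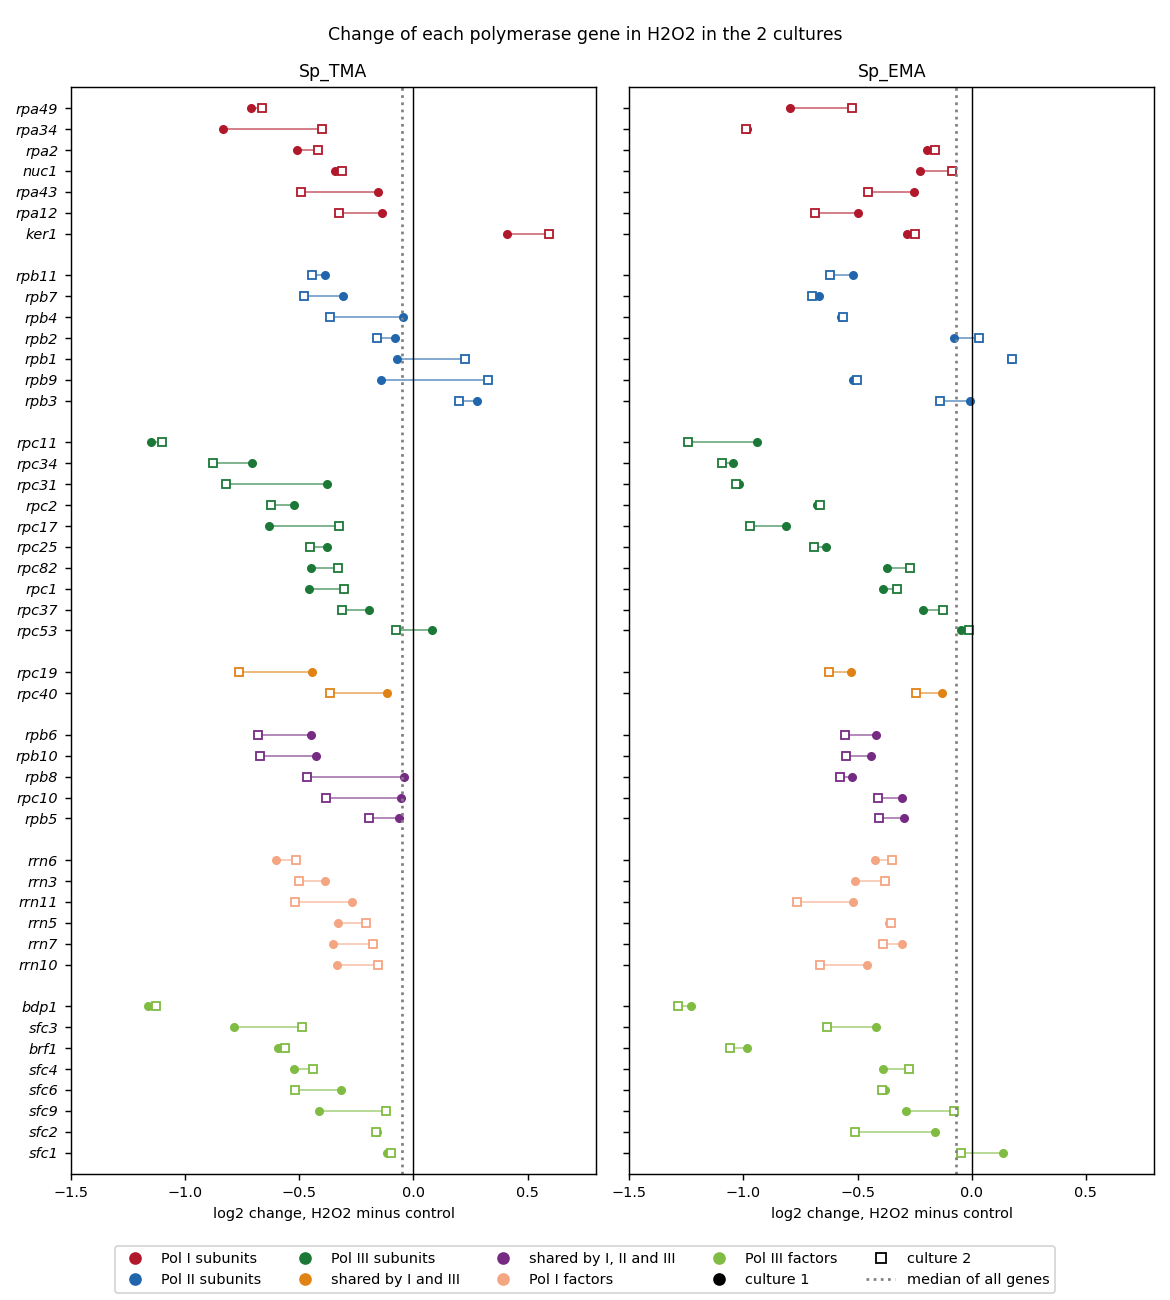
Change of each of the 45 genes (log2, H2O2 minus control; x axis) on Sp_TMA (left) and Sp_EMA (right), with culture 1 as filled circles and culture 2 as open squares, colored by group; the dotted line is the median of all 4854 genes. Most pairs of points lie left of 0 on both platforms, with bdp1 and rpc11 farthest left, and ker1 lies right of 0 on Sp_TMA and left of it on Sp_EMA.

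The median change differed from enzyme to enzyme, but their order depended on the platform and the processing. Polymerase II had the highest median on Sp_TMA and polymerase I on Sp_EMA. On Sp_TMA polymerases I and III had about the same median without dim genes. The median change of the 10 polymerase III subunits was -0.45 on Sp_TMA and -0.67 on Sp_EMA, with 9 of 10 called lower on each. For the 7 polymerase I subunits it was -0.33 and -0.35, with 4 called lower and 1 higher on Sp_TMA and 5 lower on Sp_EMA. For the 7 polymerase II subunits it was -0.12 and -0.51, with 2 lower and 1 higher on Sp_TMA and 4 lower on Sp_EMA. The 5 common subunits had medians of -0.25 and -0.49, with 2 and 5 called lower. Over all genes 31.3% were called lower and 25.2% higher on Sp_TMA, and 36.2% and 22.7% on Sp_EMA. The 2 of 7 called lower for polymerase II on Sp_TMA were near that share. Between the 2 cultures, the median of the polymerase III subunits had an SD of 0.0425 on Sp_TMA and 0.0156 on Sp_EMA, and that of polymerase II an SD of 0.0531 and 0.0125. For polymerase I this SD was 0.0402 and 0.119, and for the common subunits 0.284 and 0.0941, with medians of -0.06 in culture 1 and -0.46 in culture 2 on Sp_TMA. The median of polymerase II on Sp_TMA was -0.040 without control 2, -0.074 without H2O2 2 and -0.27 after quantile normalization, which gave -0.50 for polymerase I, and on Sp_EMA that of polymerase II was -0.32 without dim genes. The differences between the enzymes are a description, as the subunits of 1 enzyme are not replicates, and were given no test.

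**Figure D2:**
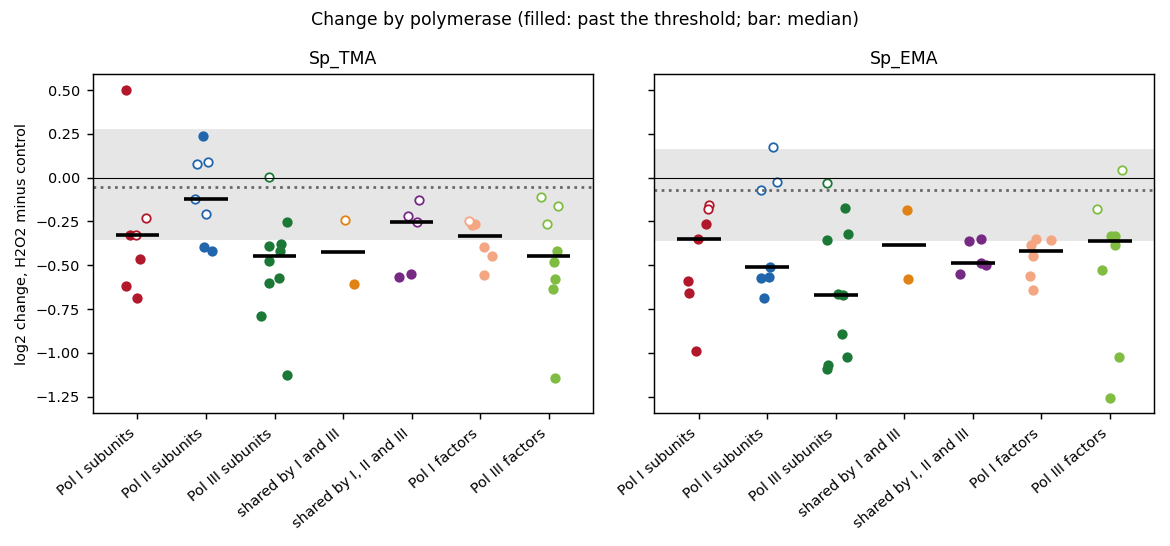
Change of each gene (log2, H2O2 minus control; y axis) by group (x axis) on Sp_TMA (left) and Sp_EMA (right), with filled points past the adjusted p of 0.05 and black bars at the group medians; the grey band and the dotted line give the middle 50% and the median of all genes. Polymerase III subunits and factors reach lowest. On Sp_TMA the polymerase I and II subunits lie on both sides of 0, with ker1 of polymerase I the highest.

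The largest fall of the 45 was that of bdp1 (SPCC1919.14c, chrIII:2237405-2239355, minus strand), which encodes a subunit of TFIIIB, the factor that places polymerase III at its start sites. Its log2 value on Sp_TMA was 7.49 and 7.33 in H2O2, against 8.65 and 8.46 in control cells, and on Sp_EMA 8.34 and 8.32 in H2O2, against 9.57 and 9.60 in control cells. Both H2O2 arrays lay more than 1 log2 unit below the lower control array on Sp_EMA and close to that on Sp_TMA, with no overlap. The change was -1.15 ± 0.10 on Sp_TMA (SE, adjusted p = 0.000245) and -1.26 ± 0.05 on Sp_EMA (adjusted p = 7.71e-05), so that 45.2% and 41.8% of the control signal was left. brf1, the TFIIB-like subunit of TFIIIB, gave 9.03 and 9.04 in H2O2, against 9.63 and 9.60 in control cells on Sp_TMA, and 7.92 and 7.88, against 8.90 and 8.94 on Sp_EMA. Its change was -0.58 ± 0.07 on Sp_TMA and -1.02 ± 0.05 on Sp_EMA (adjusted p = 0.000992 and 0.000117). Both genes had rather low signals. Among all genes the control signal of bdp1 was at the 16.0 percentile on Sp_TMA and the 19.5 percentile on Sp_EMA. That of brf1 was at the 34.3 and 13.0 percentile.

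Of the subunits, rpc11 (SPAC22A12.05, chrI:1163049-1163522, plus strand) fell most. It encodes the small subunit by which polymerase III cleaves the nascent RNA, a counterpart of the elongation factor TFIIS. Its value on Sp_TMA was 8.94 and 8.91 in H2O2, against 10.09 and 10.01 in control cells, and on Sp_EMA 11.29 and 11.23, against 12.23 and 12.47. All H2O2 arrays were lower than all control arrays, and the change was -1.12 ± 0.08 on Sp_TMA and -1.09 ± 0.09 on Sp_EMA (adjusted p = 9.5e-05 and 0.000518). Next among the subunits on both platforms came rpc34, of the initiation subcomplex that links the enzyme to TFIIIB. It had 10.07 and 10.11 in H2O2, against 10.78 and 10.99 in control cells on Sp_TMA, and 11.26 and 11.36, against 12.31 and 12.45 on Sp_EMA. That is a change of -0.79 ± 0.10 and -1.07 ± 0.07, again without overlap between the groups. Its partner rpc31 was lower by -0.60 on Sp_TMA and -1.03 on Sp_EMA. The third subunit of this subcomplex, rpc82, was lower by -0.39 and -0.32.

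The other polymerase III subunits varied, between rpc2 with -0.57 and rpc53 with 0.00 on Sp_TMA, and between rpc17 with -0.89 and rpc53 with -0.03 on Sp_EMA. The catalytic subunits rpc1 and rpc2 were lower on both platforms, with -0.38 and -0.57 on Sp_TMA, and -0.36 and -0.67 on Sp_EMA, as were the stalk subunits rpc17 and rpc25, which open the way for initiation and hold the emerging RNA, with -0.48 and -0.42 on Sp_TMA, and -0.89 and -0.67 on Sp_EMA. In the TFIIF-like pair rpc37 and rpc53, which takes part in termination, rpc53 was the single polymerase III subunit without a call on either platform, with 10.30 and 10.11 in H2O2, against 10.22 and 10.18 in control cells on Sp_TMA, and 11.49 and 11.40, against 11.54 and 11.42 on Sp_EMA. These arrays overlapped between the groups, and the change was 0.00 ± 0.09 on Sp_TMA and -0.03 ± 0.07 on Sp_EMA. Its partner rpc37 was called lower by -0.25 and -0.17, but with the culture as a block the adjusted p was 0.0697 and 0.0614. The call of rpc37 on Sp_EMA was lost whichever array was left out (-0.12 to -0.22), and on Sp_TMA without control 1 (-0.27), control 2 (-0.23) or H2O2 2 (-0.21). On Sp_TMA the calls of rpc1 and rpc82 were also lost without control 1 (-0.33 and -0.34) and that of rpc31 without H2O2 2 (-0.57), and rpc17 was not called after quantile normalization (-0.31).

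TFIIIC binds the internal promoters of tRNA genes, and TFIIIA is needed for the genes of the smallest rRNA. The median change of the 5 TFIIIC genes was -0.42 on Sp_TMA and -0.33 on Sp_EMA. Of the 5 TFIIIC genes sfc3, sfc4 and sfc6 were called lower on both platforms, with changes of -0.64, -0.48 and -0.42 on Sp_TMA and -0.53, -0.33 and -0.39 on Sp_EMA. sfc1 was not called, with 10.88 and 10.89 in H2O2, against 11.00 and 10.99 in control cells on Sp_TMA, and 9.80 and 9.65, against 9.66 and 9.70 on Sp_EMA, where the groups overlapped. sfc9 had changes of -0.27 and -0.18 with no call (limma adjusted p = 0.0507 and 0.0678), and was called lower on Sp_TMA without H2O2 2 (-0.35) and on Sp_EMA without control 2 (-0.24). On Sp_TMA sfc9 was also called lower after median centring (-0.27) or quantile normalization (-0.30), without dim genes and with an intensity trend. sfc2, the TFIIIA gene, had a change of -0.16 on Sp_TMA with no call and of -0.33 on Sp_EMA (adjusted p = 0.0293), which was not called without control 2 (-0.23), H2O2 1 (-0.40) or H2O2 2 (-0.27), nor after quantile normalization (-0.21). The call of sfc4 on Sp_EMA was lost without control 2 (-0.29) or H2O2 1 (-0.24), and that of sfc6 on Sp_TMA without control 2 (-0.33).

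The bases before the starts of bdp1 and rpc11, the 2 genes that fell most, are shown beside those of ker1, which gave the largest difference between platforms. Each sequence holds the 250 bases upstream of the annotated transcript start, 5′ to 3′ on the strand of the gene, from the RefSeq assembly ASM294v3 (bdp1 chrIII:2239356-2239605, minus strand; rpc11 chrI:1162799-1163048, plus strand; ker1 chrII:3474395-3474644, plus strand), and capitals mark the motif TATAAA on either strand.
bdp1: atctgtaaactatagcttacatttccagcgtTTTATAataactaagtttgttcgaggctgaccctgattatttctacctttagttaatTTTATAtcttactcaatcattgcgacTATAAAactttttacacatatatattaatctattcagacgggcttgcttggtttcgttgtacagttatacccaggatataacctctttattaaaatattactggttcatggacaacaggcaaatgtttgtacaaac
rpc11: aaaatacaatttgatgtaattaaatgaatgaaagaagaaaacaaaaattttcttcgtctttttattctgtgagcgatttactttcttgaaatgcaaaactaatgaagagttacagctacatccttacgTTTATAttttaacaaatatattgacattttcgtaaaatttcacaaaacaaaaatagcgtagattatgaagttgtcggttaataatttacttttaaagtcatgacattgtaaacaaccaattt
ker1: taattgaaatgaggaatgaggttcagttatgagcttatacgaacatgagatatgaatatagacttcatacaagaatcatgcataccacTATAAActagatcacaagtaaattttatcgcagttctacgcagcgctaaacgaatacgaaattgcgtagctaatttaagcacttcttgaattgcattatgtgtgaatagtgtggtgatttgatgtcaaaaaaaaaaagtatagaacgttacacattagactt
A TATAAA was found in 25 of the 45 windows (55.6%), against 44.4% of the windows of 5112 protein-coding genes, and matches on opposite strands can overlap. By group it was present in 8 of 10 polymerase III subunits, 6 of 7 polymerase II subunits, 2 of 7 polymerase I subunits and 1 of 5 common subunits. The HomolD box CAGTCACA, known from the promoters of fission yeast ribosomal protein genes, was in 1 window (all genes: 2.62%), that of rpa49, 61 bases before its start.
rpa49, chrI:3927323-3927350, minus strand: tcgcagcctcTGTGACTGtacactacac
Here the capitals mark the HomolD box, which lies on the other strand, and the rpa49 window also overlaps the annotated genes sec67 and rim1. The HomolE box ACCCTACC was in no window (all genes: 1.51%), GATGAG, the core of the budding yeast PAC element, in those of rpa12 and rpb11 (all genes: 6.85%), and TGACGT, the core of the site bound by the stress factor Atf1, in that of rpc10 (all genes: 5.52%). These are matches of letters, and no binding was measured.

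**Figure D3:**
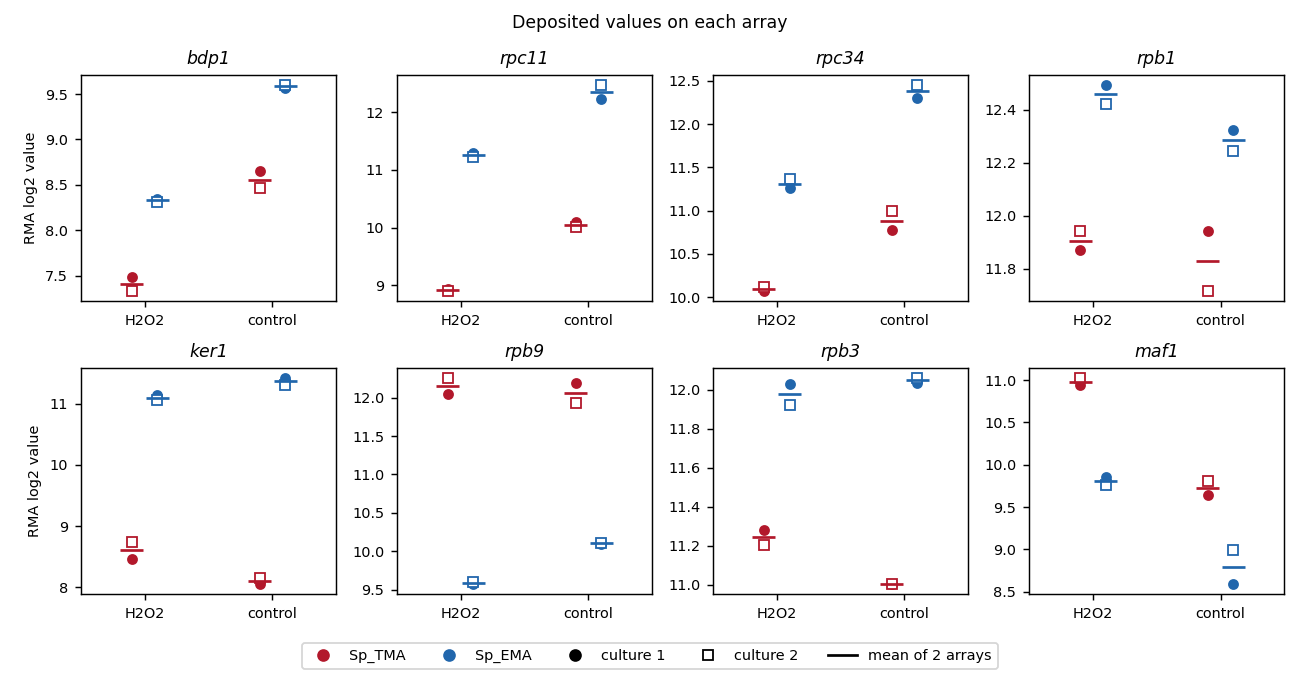
Deposited RMA log2 values (y axis) in H2O2 (left in each panel) and control (right) of 8 genes, with Sp_TMA in red, Sp_EMA in blue, culture 1 as filled circles, culture 2 as open squares and bars at the means; the panels have different y axes. The groups are apart for bdp1, rpc11 and rpc34 on both platforms, and for maf1 H2O2 is the higher.

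Of the polymerase I subunits, rpa49 and rpa34 fell most. They form the TFIIF-like heterodimer of the enzyme, which helps initiation and elongation. rpa49 had 11.41 and 11.37 in H2O2, against 12.12 and 12.03 in control cells on Sp_TMA, and 11.96 and 12.09, against 12.76 and 12.62 on Sp_EMA. The change was -0.69 ± 0.08 and -0.66 ± 0.08 (adjusted p = 0.000646 and 0.0015). rpa34 had 10.79 and 10.90 in H2O2, against 11.62 and 11.30 in control cells on Sp_TMA, and 11.79 and 11.76, against 12.78 and 12.75 on Sp_EMA. The groups did not overlap, and on Sp_EMA the change of -0.99 ± 0.05 left 50.5% of the control signal, while on Sp_TMA it was -0.62 ± 0.12.

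The catalytic subunits of polymerase I were called lower on Sp_TMA and not on Sp_EMA. nuc1, the largest subunit, gave 12.44 and 12.39 in H2O2, against 12.78 and 12.71 in control cells on Sp_TMA (-0.33 ± 0.08, adjusted p = 0.0118), and 13.47 and 13.49, against 13.70 and 13.58 on Sp_EMA (-0.16 ± 0.06, adjusted p = 0.0794). rpa2, the second largest, gave 12.58 and 12.62 in H2O2, against 13.09 and 13.04 in control cells on Sp_TMA (-0.46 ± 0.08, adjusted p = 0.00266), and 13.05 and 12.94, against 13.24 and 13.10 on Sp_EMA (-0.18 ± 0.07, adjusted p = 0.0932). Every H2O2 array of both genes lay below every control array, but the difference between platforms passed no threshold for either (adjusted p = 0.298 for nuc1 and 0.075 for rpa2). With the culture as a block rpa2 was called lower on Sp_EMA too (adjusted p = 0.0463), as it was without control 2 (-0.25), and with an intensity trend both were (adjusted p = 0.0142 for nuc1 and 0.0295 for rpa2). nuc1 was called lower on Sp_EMA without control 2 (-0.22) and was not called on Sp_TMA without control 1 (-0.29).

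The remaining polymerase I subunits had mixed calls. rpa12, the TFIIS-like subunit, and rpa43, which with ker1 makes up the stalk and contacts Rrn3, changed by -0.59 and -0.35 on Sp_EMA and were called lower there, although the call of rpa43 was lost without H2O2 2 (-0.29). On Sp_TMA they had changes of -0.23 and -0.32 with no call (adjusted p = 0.0508 and 0.0509), and rpa43 was called lower there with the culture as a block (adjusted p = 0.0178) or without H2O2 1 (-0.48), and both were called after median centring (-0.24 and -0.33).

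The 6 polymerase I factors were called lower by moderate amounts, 5 of them on Sp_TMA (background: 31.3%) and all 6 on Sp_EMA (background: 36.2%). rrn3 (SPAC18G6.11c), which joins polymerase I to its promoter, had 10.72 and 10.69 in H2O2, against 11.10 and 11.19 in control cells on Sp_TMA, and 11.78 and 11.80, against 12.30 and 12.18 on Sp_EMA, a change of -0.44 ± 0.08 and -0.45 ± 0.06. The core factor genes rrn6, rrn7 and rrn11 were called lower on both platforms, with -0.56, -0.27 and -0.39 on Sp_TMA and -0.39, -0.35 and -0.64 on Sp_EMA. Of the upstream activation factor, rrn5 was called lower on both (-0.27 and -0.36) and rrn10 on Sp_EMA (-0.56; -0.25 on Sp_TMA, adjusted p = 0.0515). On Sp_TMA the calls of rrn5 and rrn7 were lost with the culture as a block (adjusted p = 0.0523 and 0.0561) and without any 1 array (-0.21 to -0.33 for each), that of rrn7 after quantile normalization (-0.23), and that of rrn11 without control 2 (-0.29) or H2O2 2 (-0.37), while rrn10 was called without H2O2 2 (-0.33). On Sp_EMA the call of rrn7 was lost without control 1 (-0.30) or H2O2 2 (-0.26).

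The large subunits of polymerase II were called on neither platform. rpb1, whose C-terminal repeats carry the phosphorylation cycle of the enzyme, had 11.87 and 11.94 in H2O2, against 11.94 and 11.72 in control cells on Sp_TMA, and 12.49 and 12.42, against 12.32 and 12.25 on Sp_EMA. The groups overlapped on Sp_TMA, with a change of 0.08 ± 0.10, and on Sp_EMA both H2O2 arrays were the higher, with a change of 0.17 ± 0.06 (adjusted p = 0.0505). With the culture as a block rpb1 was called higher on Sp_EMA (adjusted p = 0.0479). On Sp_TMA the sign of its change turned without control 2 (-0.04) and after quantile normalization (-0.08). rpb2 had 11.78 and 11.69 in H2O2, against 11.86 and 11.85 in control cells on Sp_TMA, and 12.66 and 12.69, against 12.74 and 12.66 on Sp_EMA, a change of -0.12 ± 0.08 and -0.02 ± 0.05, the last 0.02 without control 1. After quantile normalization it was called lower on Sp_TMA (-0.27).

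The small subunits of polymerase II, in contrast to rpb1 and rpb2, were mostly called lower on Sp_EMA. rpb7 and rpb11 were called lower on both platforms, at -0.39 and -0.42 on Sp_TMA and -0.69 and -0.57 on Sp_EMA. rpb7 forms the stalk with rpb4, and rpb11 the assembly core with rpb3. rpb4 had 11.79 and 11.81 in H2O2, against 11.84 and 12.18 in control cells on Sp_TMA (-0.21 ± 0.12, no call), and 11.30 and 11.31, against 11.87 and 11.87 on Sp_EMA (-0.57 ± 0.05, adjusted p = 0.000504). The 2 control arrays of rpb4 on Sp_TMA differed widely, and the gene was called lower there without control 1 (-0.37) or after quantile normalization (-0.35). rpb3 was the other gene called higher on Sp_TMA, with 11.28 and 11.20 in H2O2, against 11.01 and 11.00 in control cells (0.24 ± 0.08, adjusted p = 0.0369), and it had 12.03 and 11.92, against 12.04 and 12.06 on Sp_EMA (-0.07 ± 0.06). That call was lost with the culture as a block (adjusted p = 0.0895), whichever array was left out (0.20 to 0.28) and after quantile normalization (0.14).

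The 7 subunits shared between enzymes were all called lower on Sp_EMA (background: 36.2%). rpb5, rpb6, rpb8, rpb10 and rpc10, the common subunits, changed by -0.35, -0.49, -0.55, -0.50 and -0.36 on Sp_EMA. On Sp_TMA rpb6 had 11.97 and 11.72 in H2O2, against 12.42 and 12.40 in control cells (-0.57 ± 0.10), and rpb10 had 12.51 and 12.18, against 12.94 and 12.86 (-0.55 ± 0.12), and both were called lower. rpb5, rpb8 and rpc10 had changes of -0.13, -0.25 and -0.22 on Sp_TMA with no call, with all H2O2 arrays below all control arrays, and in each the change was farther below 0 in culture 2. rpb8 was called lower on Sp_TMA without H2O2 1 (-0.40), rpc10 without control 1 (-0.39), and rpb5 after quantile normalization (-0.28). Of the assembly pair of polymerases I and III, rpc19 fell by 0.61 on Sp_TMA and 0.58 on Sp_EMA, and rpc40 had changes of -0.24 (no call) and -0.19 (lower, adjusted p = 0.0387). The call of rpc40 on Sp_EMA was lost with the culture as a block (adjusted p = 0.0525) and whichever array was left out (-0.14 to -0.24), and on Sp_TMA rpc40 was called without H2O2 1 (-0.32) or after quantile normalization (-0.41).

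Set side by side by role, the order of the enzymes was not the same in every role. In the largest subunit the change was -0.38 for rpc1, -0.33 for nuc1 and 0.08 for rpb1 on Sp_TMA, and -0.36, -0.16 and 0.17 on Sp_EMA. In the second largest it was -0.57 for rpc2, -0.46 for rpa2 and -0.12 for rpb2 on Sp_TMA, and -0.67, -0.18 and -0.02 on Sp_EMA. The TFIIS-like subunit had -1.12 for rpc11, -0.23 for rpa12 and 0.09 for rpb9 on Sp_TMA, and -1.09, -0.59 and -0.51 on Sp_EMA. In these 3 roles polymerase III had the lowest change and polymerase II the highest. In the TFIIF-like pair the order was the other way between polymerases I and III, with -0.69 for rpa49 and -0.62 for rpa34, and -0.25 for rpc37 and 0.00 for rpc53, on Sp_TMA. On Sp_EMA this pair had -0.66 and -0.99 in polymerase I, and -0.17 and -0.03 in polymerase III. In the stalk polymerase I was the highest on Sp_EMA, with -0.27 for ker1 and -0.35 for rpa43, where rpb4 and rpb7 had -0.57 and -0.69. All 6 stalk genes were called lower on Sp_EMA (background: 36.2%), from -0.27 for ker1 to -0.89 for rpc17. Of the 6 large catalytic subunits 4 were called lower on Sp_TMA (background: 31.3%) and 2 on Sp_EMA (background: 36.2%). Of the 25 other subunits 14 and 23 were called lower. The 2 of 6 on Sp_EMA were near the background and a smaller share than the 23 of 25. On Sp_TMA the order was the other way, with 4 of 6 a somewhat larger share than 14 of 25.

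ker1 (SPBC1718.03, chrII:3474645-3475659, plus strand), which encodes a small stalk subunit of polymerase I, was called in opposite directions. On Sp_TMA it had 8.47 and 8.74 in H2O2, against 8.06 and 8.15 in control cells, an increase of 0.50 ± 0.11 (adjusted p = 0.00887). On Sp_EMA it had 11.14 and 11.06 in H2O2, against 11.42 and 11.30 in control cells, a fall of 0.27 ± 0.07 (adjusted p = 0.0195). The groups did not overlap on either platform, and each culture moved the same way as the mean. In control cells the signal of ker1 on Sp_TMA was at the 11.6 percentile of all genes, within the dimmest 25%. The call on Sp_TMA was lost without control 1 (0.46, adjusted p = 0.0524), and that on Sp_EMA without control 1 (-0.21), H2O2 1 (-0.31) or H2O2 2 (-0.23). The annotation places a non-coding RNA, SPNCRNA.6148, over the whole coding region of ker1 on the other strand, and Sp_EMA does not tell the strands apart; its part in the result was not tested.

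The difference between the platforms was tested for each gene by subtracting the Sp_EMA change from the Sp_TMA change. It passed the threshold for 8 of the 45 genes, in all of them with the change on Sp_TMA the higher (background: 10.1% of all genes, and 3.56% in the other direction). These were ker1 with 0.77, rpb9 with 0.60, brf1 with 0.45, rpc31 and rpc17 with 0.42 each, rpa34 with 0.37, and rpb4 and rpa12 with 0.36 each. rpb9, the TFIIS-like subunit of polymerase II, had 12.05 and 12.26 in H2O2, against 12.19 and 11.93 in control cells on Sp_TMA, and 9.58 and 9.61, against 10.10 and 10.11 on Sp_EMA. On Sp_TMA its groups overlapped and the cultures went opposite ways (-0.14 and 0.33), while on Sp_EMA both were below 0 (-0.52 and -0.50). The sign on Sp_TMA turned without control 2 (-0.04) or H2O2 2 (-0.01) and after quantile normalization (-0.07). Across the 8 arrays with no pairing of cultures, only ker1 and brf1 passed (adjusted p = 0.0356 and 0.0363), and 3 of the 45 genes passed after median centring and 1 after quantile normalization.

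**Figure D4:**
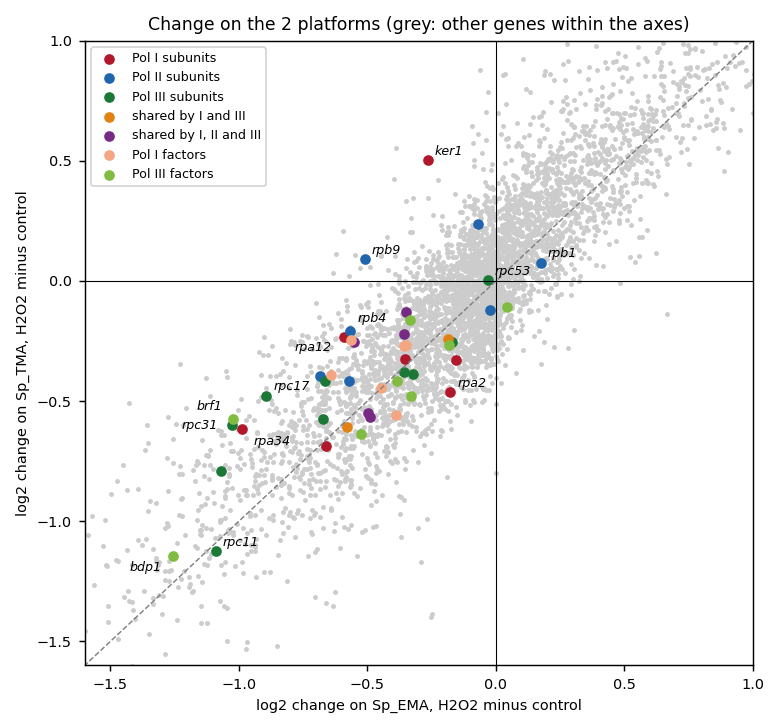
Change of each gene on Sp_TMA (y axis) against its change on Sp_EMA (x axis), both log2, H2O2 minus control, with the 45 genes colored by group over all other genes in grey; the dashed line marks equal change. The 8 named genes past the test of the difference, from ker1 (0.77) to rpa12 (0.36), lie above the dashed line.

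The platform difference was also set against the length of the genes. Across the 45 genes the rank correlation of coding length with the difference (Sp_TMA minus Sp_EMA) was -0.58, and with the change it was -0.08 on Sp_TMA and 0.42 on Sp_EMA. Over the 4844 genes with a coding length in the annotation these values were -0.43, -0.15 and 0.04. The 8 genes that passed the test have coding lengths of 342 (rpb9), 360 (rpa12), 390 (rpc17), 408 (rpb4), 444 (ker1), 633 (rpc31), 756 (rpa34) and 1479 bp (brf1), while the 6 catalytic subunits, of 3498 (rpc2) to 5259 bp (rpb1), differed by -0.29 (rpa2) to 0.10 (rpc2). These correlations are a description across genes, which share the arrays and cultures.

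**Figure D5:**
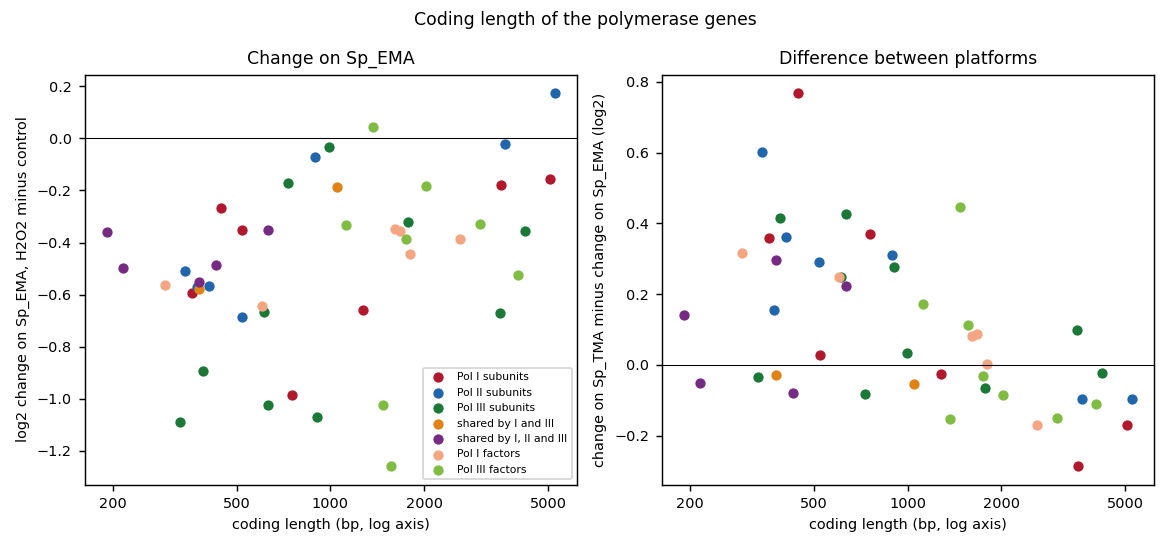
Coding length in bp (x axis, log scale) of the 45 genes against the change on Sp_EMA (left) and against the Sp_TMA change less the Sp_EMA change (right), both log2, colored by group. The 8 genes past the test of the difference have 342 to 1479 bp, and the long catalytic subunits lie between -0.29 and 0.10 in the right panel.

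Many of the genes overlap transcripts of the other strand, which Sp_EMA cannot separate. In the ASM294v3 annotation 43 of the 45 have a transcript of the opposite strand over some of their coding bases, for 21 it covers all of them, and for 7 that transcript is of a protein-coding gene, which concerns brf1, rpa34, rpa49, rpb7, rpc17, rrn7 and sfc2. The shares over all genes were not determined, so these counts do not set the machinery apart from other genes. Apart from 4 bases of rpa34 and sme1, the coding bases of these genes do not overlap those of their partners. The values of a partner may therefore come from another stretch than the overlap. The partners had changes in both directions. vrp1, opposite brf1, had 0.30 on Sp_TMA and 0.13 on Sp_EMA with no call, and sme1, opposite rpa34, had 0.21 (no call) and -0.33 (lower). tcb3 (SPAPYUK71.03c), opposite rpb7, was called higher on both, by 0.47 and 0.50, while rpb7 was called lower. sec67 (SPAC2F3.02), opposite rpa49, had -0.65 and -0.83, and mpa1 (SPAPB1E7.11c), opposite rpc17, had -0.39 and -0.32, all called lower. spc24, opposite rrn7, had -0.05 and -0.13, and jac1 (SPAC144.08), opposite sfc2, had 0.02 and -0.11, with no call. The part of the other strand in the values of Sp_EMA was not tested.

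The genes matched by alias behaved apart from each other. bdf1 was lower on both platforms (-0.47 and -0.35), although not without H2O2 1 on Sp_EMA (-0.32, adjusted p = 0.0582), and pnu1 was not called (0.22 and 0.08).

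The other genes of the transcription machinery had changes in both directions. Over 86 genes of 5 lists (general factors of polymerase II, Mediator, elongation and termination, other polymerase I and III factors, and assembly), 22 were higher and 21 lower on Sp_TMA and 19 higher and 32 lower on Sp_EMA, with a median change of -0.04 on each. These are 25.6% higher and 24.4% lower on Sp_TMA (background: 25.2% and 31.3%) and 22.1% and 37.2% on Sp_EMA (background: 22.7% and 36.2%), shares near those of all genes, and the counts of the single lists are given as a description. Among 32 general factors of polymerase II, 13 were higher and 7 lower on Sp_TMA and 9 higher and 8 lower on Sp_EMA. Of 20 Mediator genes 2 were higher and 5 lower on Sp_TMA and 1 higher and 10 lower on Sp_EMA. Of 24 elongation, C-terminal domain and termination genes 5 were higher and 6 lower on Sp_TMA and 7 higher and 9 lower on Sp_EMA. Of 5 other polymerase I and III factors 1 was higher and 1 lower on Sp_TMA and 1 higher and 3 lower on Sp_EMA, and of 5 assembly and import genes 1 was higher and 2 lower on each.

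The largest increase in these lists on Sp_TMA was that of maf1 (SPAC31G5.12c), which encodes the repressor of polymerase III. It had 10.94 and 11.03 in H2O2, against 9.64 and 9.81 in control cells on Sp_TMA, and 9.85 and 9.76, against 8.59 and 8.99 on Sp_EMA. The groups were apart on both platforms, and the change was 1.26 ± 0.09 on Sp_TMA and 1.01 ± 0.14 on Sp_EMA (adjusted p = 0.000108 and 0.00256). eaf1, an elongation factor, rose by 0.84 and 1.05, the largest increase on Sp_EMA, med15, a Mediator tail subunit, by 0.70 and 0.47, taf111, a TFIID subunit, by 0.65 and 0.59, and tfg2, a TFIIF subunit, by 0.56 and 0.31, the last not without H2O2 1 (0.27) or H2O2 2 (0.35) on Sp_EMA.

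The largest fall on both platforms was that of ssu72 (SPAC3G9.04), a phosphatase of the C-terminal domain of polymerase II. It had 9.18 and 8.81 in H2O2, against 10.79 and 10.59 in control cells on Sp_TMA, and 8.49 and 8.48, against 10.01 and 10.15 on Sp_EMA, a change of -1.70 ± 0.14 and -1.59 ± 0.07. The 3 genes of the Lsk1 kinase complex, which phosphorylates that domain, were all lower: the cyclin gene SPBC530.13 by -0.85 on Sp_TMA and -0.94 on Sp_EMA, lsk1 by -0.67 and -0.39, and the gamma subunit gene SPCC4B3.08 by -0.63 and -0.93. SPAC23A1.16c, the gene of the C-terminal domain phosphatase Rtr1, was lower by -0.69 and -0.60.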

How the data were processed

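RNA levels of 8 arrays were used, 2 of H2O2 and 2 of control cells per platform, as the labels group them. The authors filtered probes to unique matches in annotated exons, kept genes with at least 4 probes and summarized them by RMA, and the deposited values are log2 signals per gene, used here as deposited. The software version is not given in the sources used here. Both tables hold the same 4854 genes. Names, positions and sequences are from RefSeq (ASM294v3), in which 4844 rows had 1 locus.

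H2O2 was compared with control per platform by moderated linear models of limma 3.58.1, run under R 4.3.3 (two-sided, Benjamini-Hochberg over all genes, adjusted p below 0.05). With 2 arrays against 2, an exact permutation test cannot go below p = 0.333, so none is given. For the platform difference, the Sp_EMA change was subtracted from the Sp_TMA change of the same culture, and limma set the 2 values per gene against 0. Same-numbered samples are from the same culture, by the methods. Across genes, the difference between cultures in H2O2 correlated with that in control cells at r = -0.0585 on Sp_TMA and 0.253 on Sp_EMA. The fit without a culture term was kept, and the block is given where it changes a call. The median SD between cultures over the 45 genes was 0.05 in H2O2 and 0.07 in control cells on Sp_TMA, and 0.04 and 0.06 on Sp_EMA, and the number of arrays limits the precision.

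Genes and lists were chosen with earlier results of these data known. Every matched gene is named, and of the 5 other lists up to 5 genes in each direction that both platforms called, ranked by their Sp_TMA change, beside 4 stress genes as a check of the labels. The TATA-binding protein was not analysed here, as its name matched another gene by an alias, and protein sequences were not analysed here. The steps were tested on simulated data. At a simulated log2 change of 0.5, 37 of 67 genes were recovered on Sp_TMA and 43 of 67 on Sp_EMA. For the platform difference 5 of 67 were recovered at 0.5 and 58 of 67 at 1. A missing call at a small change therefore does not show that a gene was unchanged. Alternatives were the block, leaving out each array, median centring, quantile normalization, leaving out the dimmest 25% of genes, an intensity trend, robust eBayes and a threshold of 0.01. A fit without 1 array has a single array in 1 group and less power. A call can then be lost though the change is larger, as for sfc2 on Sp_EMA without H2O2 1 (-0.40, against -0.33). Figures were drawn with matplotlib 3.10.9 and tables written with pandas 2.3.3 under Python 3.11.15.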

Additional observations from a re-analysis of the deposited data

Results flagged for a closer look

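The change differed between the platforms, by the test of the difference itself, for 8 of the 45 genes. The Sp_TMA change less the Sp_EMA change was 0.77 for ker1, 0.60 for rpb9, 0.45 for brf1, 0.42 for rpc31, 0.42 for rpc17, 0.37 for rpa34, 0.36 for rpb4 and 0.36 for rpa12 (limma adjusted p from 7.53e-05 for ker1 to 0.0372 for rpa34). Each had the same sign in both cultures. With 2 differences per gene the test rests largely on the variance shared between genes, and without pairing only ker1 and brf1 passed.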

How the results depend on the processing

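The counts of genes called lower stayed within 1.5 times under every alternative run, from 23 to 33 on Sp_TMA, against 28, and from 29 to 38 on Sp_EMA, against 37, the 29 being of the 36 genes left after dim genes were removed. The count of genes called higher on Sp_TMA, 2, was 1 with the culture as a block, after quantile normalization, without the dimmest 25% of genes (of 38 left) and at a threshold of 0.01, and 0 to 1 with 1 array left out. On Sp_EMA it was 1 in place of 0, namely rpb1, with the block, after centring, without dim genes and with an intensity trend. The median change of the polymerase I subunits on Sp_TMA (-0.33) was -0.50 after quantile normalization, -0.40 without dim genes and -0.44 to -0.31 with 1 array left out. That of polymerase II was -0.27 on Sp_TMA (-0.12) and -0.40 on Sp_EMA (-0.51) after quantile normalization, -0.32 on Sp_EMA without dim genes, and -0.17 to -0.040 on Sp_TMA and -0.53 to -0.50 on Sp_EMA with 1 array left out. That of polymerase III on Sp_TMA (-0.45) was -0.40 without dim genes, and on Sp_EMA (-0.67) it was -0.70 to -0.64 with 1 array left out. The count of genes that differed between platforms, 8, was 2 with no replicate block, 3 after centring and 1 after quantile normalization. The cause of these shifts was not tested.

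Genes with a change near 0 turned sign. With 1 array left out, rpb1 on Sp_TMA ranged from -0.037 (without control 2) to 0.19, rpb9 on Sp_TMA from -0.039 (without control 2, and -0.011 without H2O2 2) to 0.22, rpc53 on Sp_TMA from -0.094 (without H2O2 1, and -0.015 without control 2) to 0.099, rpc53 on Sp_EMA from -0.092 to 0.029 (without control 1, and 0.012 without H2O2 2), rpb2 on Sp_EMA from -0.064 to 0.018 (without control 1), sfc1 on Sp_EMA from -0.028 (without H2O2 1) to 0.12 and pnu1 on Sp_EMA from -0.034 (without control 1) to 0.20. On Sp_TMA quantile normalization gave -0.082 for rpb1 and -0.069 for rpb9, and centring gave -0.000175 for rpc53. Over all named genes and alternatives 1198 of the changes kept direction and call, 70 lost the call, 38 gained one and 13 turned sign. The replicate block, with the pairing by culture, changed no call other than the 9 given with the genes. Fitting every row of each table gave no separate value, as both tables hold the same genes. The 2 arrays a group limit what the test can show, and a change in total mRNA per cell is outside what these values measure.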
